A study of Mus musculus with 8 samples.

Results

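The comparison described here is between the anti-IgM stimulated cells of a pair of stable lines derived from WEHI-231, WEHI-miR-148a and WEHI-control. It uses 4 of the series' 8 RNA-seq libraries: 2 of stimulated WEHI-miR-148a and 2 of stimulated WEHI-control. They were chosen by cell line and treatment and paired by the prefix of the library names, R137L5 (called set 1 here) or R143 (set 2), each prefix covering 1 library of every group. Both stimulated groups had received anti-IgM at 2 ug/ml for 14 h, and the same lines without stimulation, also 2 libraries each, are used for comparison. The labels give the cells as immature B lymphocytes. The sources used here do not say how the lines were made, whether either is a clone, or whether the 2 libraries of a group came from separate cultures. The p-values therefore measure only how these libraries vary, and that may be technical. A line difference below is always WEHI-miR-148a over WEHI-control.

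WEHI-231 is a mouse B lymphoma line with the phenotype of an immature B cell. Crosslinking its surface IgM is a classic model of negative selection, in which the cells arrest and then die. A microRNA such as miR-148a guides an Argonaute complex to messenger RNAs whose 3′ untranslated region (3′ UTR) pairs with its seed, bases 2 to 8 from its 5′ end, and such messages are commonly degraded or translated less. miR-148a belongs to a family of microRNAs that share the seed.

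The stimulated libraries held 5810227 and 11348764 counts in WEHI-control (set 1, then set 2) and 5977803 and 10524385 in WEHI-miR-148a, so set 1 was the shallower. A count of 3 corresponds to 0.166 to 0.502 CPM (counts per 1000000 counts of the library) over the 8 libraries. Markers of B cells summed to 1656 and 1805 CPM in the control line and 2130 and 2419 CPM in the miR-148a line. Of 13 myeloid markers, Lyz1, Lyz2, S100a8 and S100a9 were at 0 in the stimulated libraries, as were 5 of 8 fibroblast and 7 of 9 erythroid markers. The myeloid markers summed to 13.1 to 17.9 CPM, with Itgam at 23 to 96 counts, Fcgr1 at 25 to 60 and Cd68 at 15 to 38. Among T cell markers Cd3d, Cd3e, Cd3g, Cd4 and Cd8a held 0 to 4 counts each, while Cd8b1 held 361 to 809 and Cd5 199 to 471. T cell markers summed to 246 to 311 CPM, mostly Lck, a kinase at 131 to 173 CPM that was called lower in the miR-148a line (-0.28, adjusted p = 0.0491), but not with no replicate block (0.356), by DESeq2 (0.103) or without the set 2 stimulated control library (0.620) or any 1 of the 4 miR-148a libraries (0.0592 to 0.197). The row for the miR-148a gene held 1 count in the whole series, in an unstimulated library of WEHI-miR-148a, so these polyA-selected libraries give no check of the microRNA's own level.

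The stimulated libraries also differed along the series' main axis of variation. That axis, the first principal component with 49.4% of the variance, set stimulated libraries apart from unstimulated ones. On it the stimulated control line scored 26.1 in set 1 and 18.8 in set 2, and the stimulated miR-148a line 29.4 and 39.9. The lines were therefore close on this axis in set 1 and far apart in set 2. Medians are given for each set below for the gene lists whose sets lay apart, and the part of this gap in the line difference was not tested.

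The mature sequences are shown because the seed defines the sites counted below. They are RefSeq's on GRCm38, written 5′ to 3′ with the seed in capitals.
mmu-miR-148a-3p: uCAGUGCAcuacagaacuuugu
mmu-miR-148b-3p: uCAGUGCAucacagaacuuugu
mmu-miR-152-3p: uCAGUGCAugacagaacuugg
mmu-miR-148a-5p: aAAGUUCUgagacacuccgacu
The first 3 carry the same seed, CAGUGCA. The last is the other strand of the miR-148a hairpin, with a different seed, and serves as a contrast. The miR-148a-3p sequence lies at chr6:51269829-51269850 on the minus strand.

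The longest annotated 3′ UTR of each gene was searched, on the transcribed strand, for the letters that pair with this seed. An 8mer is TGCACTGA, a 7mer-m8 is TGCACTG with no A after it, and a 7mer-A1 is GCACTGA with no T before it. A gene was put in the class of its strongest site, in that order. Over 21010 annotated genes with a 3′ UTR, 3.58% held an 8mer, 9.12% a 7mer-m8 as their strongest site and 6.23% a 7mer-A1. The stretches around the 8mers of 5 genes described below are shown here in GRCm38, with the 8mer in capitals. These genes are examples chosen by their low line differences.
Bcat1: agttcacatcaTGCACTGAgatcccaagag
Celf2: taggtgtgtgcTGCACTGAtcaatgggtat
Cth: atacgcagaacTGCACTGAatattttaagg
Bcl2l11: cctttacgtttTGCACTGAtgaattttgac
Arl6ip1: ttgtggatccaTGCACTGAtgctgtgaagc
These 8mers lie in the 3′ UTRs at chr6:144995399-144995406 (minus strand), chr2:6541307-6541314 (minus), chr3:157894706-157894713 (minus), chr2:128162409-128162416 (plus) and chr7:118119171-118119178 (minus). A match describes letters in the reference and is not a shown binding site.

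Messages with an 8mer for miR-148a-3p were called lower in the stimulated miR-148a line more often than other messages. A gene was called when its adjusted p was under 0.05 in edgeR's quasi-likelihood test with Benjamini-Hochberg adjustment over 11291 genes, with the set as a replicate block, and all adjusted p-values below are from that fit unless another is named. Of 465 tested genes with an 8mer, 110 were called lower (23.7%) and 24 higher (5.16%). Of 8365 genes with no site, 587 were called lower (7.02%) and 693 higher (8.28%). Over all tested genes 8.24% were called lower and 7.9% higher. The classes with a 7mer lay between: 10.2% of 1198 genes with a 7mer-m8 and 11.5% of 788 with a 7mer-A1 were called lower.

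The median line difference followed the same order. It was -0.13 on the log2 scale for genes with an 8mer, -0.04 for a 7mer-A1, -0.03 for a 7mer-m8 and -0.0024 for no site. For the 8mer class it was -0.14 in set 1 and -0.14 in set 2, so this value was alike in both sets. The median of the 8mer class less that of genes with no site was -0.158 in set 1 and -0.127 in set 2. Without stimulation the median of the 8mer class was -0.07, with 73 genes called lower and 17 higher.

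More sites went with a lower median and with longer 3′ UTRs. The 181 genes with an 8mer and at least 1 further site had a median of -0.17, and 28.2% were called lower and 7.18% higher. The 284 genes with an 8mer alone had a median of -0.12, and 20.8% were called lower and 3.87% higher. The median 3′ UTR was 3386 bases in the former and 1772 in the latter, and these 2 groups were not compared at like length. Genes with an 8mer had longer 3′ UTRs (median 2282 bases) than genes with no site (921 bases), so the classes were also compared among genes of like length. Among the shortest 3′ UTRs (up to 690 bases) 37.3% of the 51 genes with an 8mer were called lower, against 6.93% of those with no site. At 690 to 1819 bases the shares were 16.5% and 7.29%, and above 1819 bases 24.4% and 6.79%. Among genes with an 8mer for the other strand, miR-148a-5p, 9.09% of 352 were called lower, against 8.41% of all genes with a 3′ UTR. Read from the other side, 12.1% of the genes called lower held a miR-148a-3p 8mer, 2.75% of those called higher and 3.66% of those not called.

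**Figure D1:**
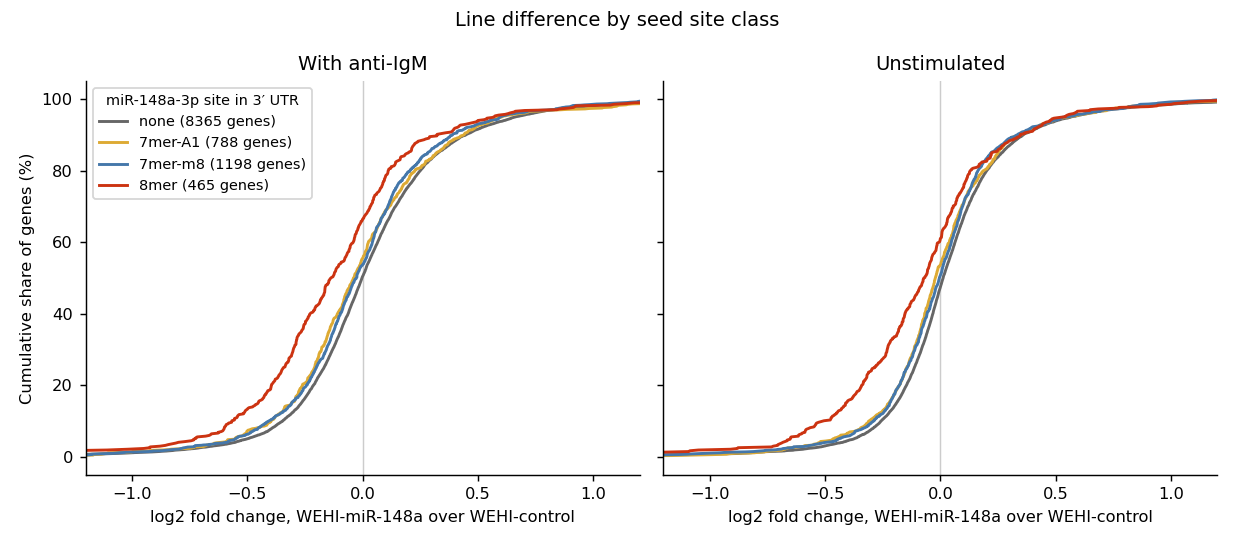
Cumulative share of genes (y axis, percent) by log2 fold change of WEHI-miR-148a over WEHI-control (x axis) for genes whose 3′ UTR holds an 8mer (red, 465 genes), a 7mer-m8 (blue), a 7mer-A1 (yellow) or none (gray, 8365 genes), with anti-IgM on the left and unstimulated on the right. The 8mer curve lies to the left of the others in both panels, with medians of -0.13 and -0.07.

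Bcl2l11, which encodes the BH3-only death activator BIM and is a reported miR-148a target, was lower in the stimulated miR-148a line. Its level was 115 CPM in set 1 and 142 CPM in set 2 of WEHI-control and 52.8 and 73.0 CPM in WEHI-miR-148a. Both miR-148a libraries lay below both control libraries. The line difference was -1.02 ± 0.12 (log2, SE; adjusted p = 0.000133). Without stimulation Bcl2l11 stood at 45.1 and 44.8 CPM in the control line and 44.7 and 40.0 CPM in the miR-148a line, and the line difference was -0.09 (adjusted p = 0.735). The log2 change from unstimulated to stimulated was 1.51 in the control line and 0.58 in the miR-148a line. The test of the difference between the 2 line differences gave -0.93 (adjusted p = 0.0605), which missed the threshold. Its 3′ UTR of 4218 bases holds 4 seed matches: the 8mer shown above, a pair of 7mer-m8 and a 7mer-A1.
Bcl2l11, 7mer-m8: ggacagcgctcTGCACTGtgtcgatgtgaa
Bcl2l11, 7mer-m8: gtgcgcttcacTGCACTGcggtggctgtgt
Bcl2l11, 7mer-A1: tttagtgaacaGCACTGAtctctgtatagt
The 7mers lie at chr2:128158478-128158484, chr2:128159237-128159243 and chr2:128162319-128162325 (plus strand). They start 149, 908 and 3990 bases into the 3′ UTR, and the 8mer starts at 4080, near its end.

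Gadd45a, a stress-induced growth arrest gene with an 8mer 32 bases into its 3′ UTR, was too low to compare. It stood at 1.51 and 0.87 CPM in the control line and 1.15 and 0.738 CPM in the miR-148a line, with a line difference of -0.31 ± 0.49 (adjusted p = 0.723).

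The 8 genes with an 8mer and the lowest called differences, at a mean log2 CPM of at least 3, included metabolic, membrane and RNA-binding genes; the choice used these differences. Bcat1, the cytosolic branched-chain amino acid transaminase, stood at 81.9 and 83.9 CPM in the control line and 36.7 and 24.2 CPM in the miR-148a line. Its line difference was -1.50 ± 0.13 (adjusted p = 2.63e-05), and -1.09 unstimulated. Celf2, an RNA-binding regulator of splicing, stood at 42.2 and 43.7 CPM against 19.2 and 16.3 CPM, a difference of -1.30 ± 0.12 that was as large unstimulated (-1.28). Cth, which makes cysteine from cystathionine, stood at 48.4 and 41.5 CPM against 24.5 and 17.9 CPM. These genes showed no overlap between the lines, with or without anti-IgM.

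Arl6ip1, a membrane protein that shapes the endoplasmic reticulum, was the most abundant of the 8, at 271 and 233 CPM in the control line and 140 and 126 CPM in the miR-148a line. Its 3′ UTR holds 3 seed matches, and its line difference was -0.92 ± 0.08 with anti-IgM and -1.05 unstimulated. Idi1, isopentenyl-diphosphate isomerase of the sterol pathway, differed by -0.85, and Slc35d1, a nucleotide sugar transporter, by -0.84. In the fit with no replicate block 6 of the 8 remained called, and Idi1 (adjusted p = 0.0842) was among those that did not. Slc35d1 was not called when either set 2 stimulated library was left out (0.0535 and 0.0519). In the 4 stimulated libraries alone with no replicate block, Bcat1 and Celf2 remained called, while Bcl2l11 (adjusted p = 0.0792) and the others did not.

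**Figure D2:**
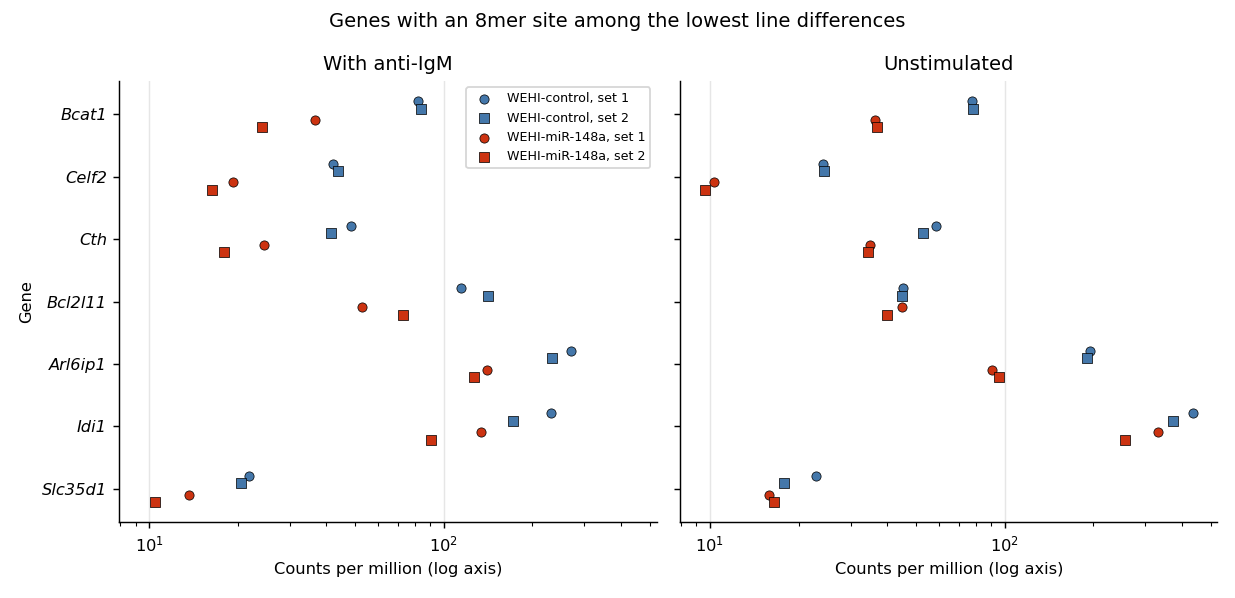
Level of 7 of the 8 genes with an 8mer and the lowest called line differences at a mean log2 CPM of at least 3 (y axis) in CPM on a log axis (x axis). Each library is 1 point, blue for WEHI-control and red for WEHI-miR-148a, circles for set 1 and squares for set 2. With anti-IgM every red point lies left of both blue points of its gene, which the choice of genes by these differences favors. Bcl2l11 stands at 40.0 to 45.1 CPM in all 4 unstimulated libraries.

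Of 23 tested genes from a list of targets reported for miR-148a, 4 were called lower and 3 higher, with a median of -0.09 (-0.01 in set 1 and 0.003 in set 2) against -0.01 over all tested genes. Dnmt1, the maintenance DNA methyltransferase, stood at 709 and 779 CPM in the control line and 525 and 641 CPM in the miR-148a line (-0.35 ± 0.07, adjusted p = 0.00357), and has an 8mer. Rock1, a kinase of the actin cytoskeleton with a 7mer-m8, differed by -0.58 ± 0.08 (adjusted p = 0.000291). The members called higher were Txnip, Abca1, a cholesterol exporter (32.6 and 34.3 CPM against 50.0 and 73.9 CPM, 0.91 ± 0.17), and Rps6ka5, a nuclear kinase (0.60 ± 0.17). Abca1 and Rps6ka5 also hold a 7mer-m8. Of 13 genes of the microRNA machinery, the processing enzyme Drosha (-0.26) and the exporter Xpo5 (-0.35) were called lower and none higher. The 15.4% of this list that was called lay near the 16.1% called over all tested genes. Of the 23 targets 2 were called with no replicate block, both lower, and none of the 13 machinery genes (1 higher and 2 lower at an unadjusted p under 0.05), while DESeq2 called 1 of the latter. No target was called higher and 4 were called lower when the set 2 stimulated library of either line was left out.

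Over the whole transcriptome 1822 of 11291 tested genes were called with anti-IgM (16.1%), 892 higher (7.9%) and 930 lower (8.24%) in the miR-148a line. The counts called in each gene list are to be read beside these shares. Of the 1822, 118 of the higher and 82 of the lower differed by more than 2-fold. For 1816 of the 1822 the sets did not differ in sign, against 7596 of all 11291 tested genes. A call from these same libraries favors such agreement, so it is no separate check. With no replicate block 284 genes were called (2.52%), all of them among the 1822, and 16 when only the 4 stimulated libraries entered that fit. DESeq2 with the block called 1020, of which 1019 were among the 1822. The count was 430 without the set 2 stimulated control library and 640 without the set 2 stimulated miR-148a library.

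Among the 12 genes with the largest called increases were Cdx1, Igfn1, Camk2n1, Gstm1, Sned1, Camsap3, Sec14l4, Fam179a, Stc1 and Neurl1b. Cdx1, a homeobox factor best known from the gut, stood at 4.19 and 2.78 CPM in the control line and 23.0 and 18.4 CPM in the miR-148a line, a difference of 2.60 ± 0.22 (adjusted p = 2.09e-05), and differed by 2.13 unstimulated. Camk2n1, an inhibitor of calmodulin-dependent kinase II, was the most abundant, at 11.05 and 10.96 CPM against 39.6 and 39.9 CPM (1.85 ± 0.14). Igfn1, a muscle protein with immunoglobulin and fibronectin domains, stood at 4.52 and 5.91 CPM against 19.6 and 19.3 CPM (1.85 ± 0.20). For these 3 genes the lines did not overlap, which their choice by this difference favors. Gstm1, a glutathione transferase (1.70), belongs to a family of near-identical genes, so its reads may be shared with its neighbors.

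The 12 largest decreases by the same choice were Serpinb9, Serpinb6b, Kcnk10, Zfp365, Tespa1, Samsn1, Sh2d2a, Abra, Wisp1, Ksr2, Gimap7 and Il2rb. Serpinb9, the intracellular inhibitor of granzyme B, stood at 5.19 and 4.44 CPM in the control line and 0.493 and 1.11 CPM in the miR-148a line (-2.41 ± 0.41, adjusted p = 0.00175). Tespa1, known from antigen receptor signaling in thymocytes, was the most abundant of the 12, at 20.1 and 26.1 CPM against 9.54 and 4.34 CPM (-1.90 ± 0.24). Il2rb, the beta chain of the interleukin 2 receptor, stood at 7.20 and 7.57 CPM against 1.81 and 3.05 CPM (-1.54 ± 0.30). Samsn1, an adaptor that restrains B cell activation, differed by -1.83, and Gimap7, a lymphocyte GTPase and the only one of the 12 with an 8mer, by -1.61. Unstimulated, Il2rb stood at 0.443 and 0.18 CPM in the control line and 0.23 and 0.384 CPM in the miR-148a line, so it was low in both lines.

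These 24 genes were low, and their calls moved with the fit. Dropping the replicate block left 8 of the 12 highest and 7 of the 12 lowest called, and DESeq2 called 9 and 8 (2 of the lowest had no adjusted p there). In the 4 stimulated libraries alone with no replicate block 3 and 0 were called. Without the set 2 stimulated control library 5 of the 12 highest (Gstm1, Sned1, Camsap3, Sec14l4, Fam179a and Stc1 were among those lost) and 8 of the 12 lowest (Abra, Wisp1, Ksr2 and Il2rb were lost) remained. Leaving out the set 2 stimulated miR-148a library, 8 of each remained, with Gstm1, Camsap3, Sec14l4 and Stc1 lost among the highest and Zfp365, Abra, Wisp1 and Ksr2 among the lowest. When either set 1 stimulated library was left out Fam179a was not called, and Gimap7 was not called without the set 1 stimulated control library.

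**Figure D3:**
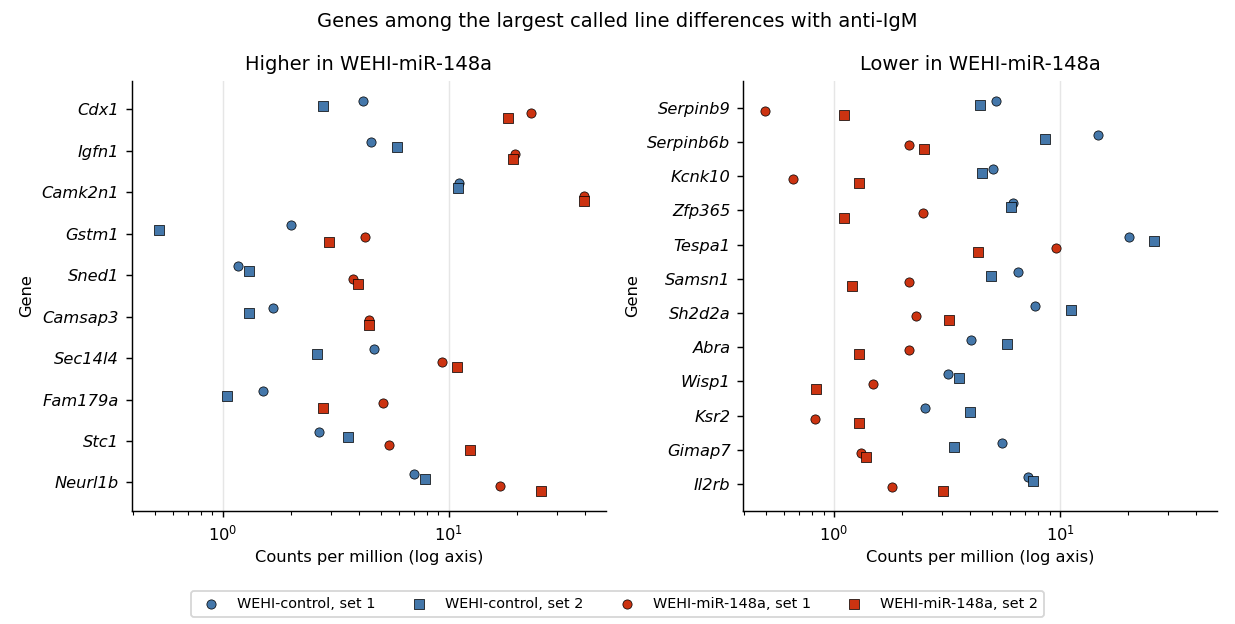
CPM (x axis, log scale) in the stimulated libraries of 10 of the 12 called genes with the largest increases (left) and of the 12 with the largest decreases (right), blue for WEHI-control, red for WEHI-miR-148a, circles for set 1 and squares for set 2. Each gene's red and blue points do not overlap, and most levels lie under 30 CPM; the rule that chose the genes used these differences.

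Calls among genes of the cell death machinery were few and went in both directions. In the pro-apoptotic list 11.1% were called in each direction, near the 7.9% higher and 8.24% lower over all tested genes. In the anti-apoptotic list 9.09% were called higher and 27.3% lower. Of 9 tested pro-apoptotic BCL2 family genes, Bcl2l11 was called lower and Pmaip1, which encodes the BH3-only protein NOXA, higher, at 122 and 84.8 CPM in the control line and 178 and 126 CPM in the miR-148a line (0.56 ± 0.08, adjusted p = 0.000412). Of 11 anti-apoptotic genes, Mcl1, the survival factor that NOXA binds, was called higher, at 1172 and 992 CPM against 1496 and 1334 CPM (0.39 ± 0.07). Cflar, the inhibitor of caspase 8 activation, which has an 8mer, was called lower at 61.3 and 65.0 CPM against 47.9 and 47.2 CPM (-0.41 ± 0.09). Bcl2a1b (-0.82) and Bcl2a1d (-0.65) were also called lower, but these near-identical copies may share reads. In the fit with no replicate block Bcl2l11 remained called, Pmaip1 did not (adjusted p = 0.252), and none of the anti-apoptotic genes was, with 1 higher and 3 lower at an unadjusted p under 0.05. Among the anti-apoptotic genes none was called lower without the set 2 stimulated control library and 1 without the set 2 stimulated miR-148a library.

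Genes of the B cell receptor and the B lineage were called higher more often than lower in the stimulated miR-148a line. Of 27 tested B lineage genes, 12 were called higher and 2 lower, with a median of 0.26 (0.21 in set 1 and 0.32 in set 2) and 0.04 unstimulated. Spib, an ETS factor of B cells, stood at 489 and 518 CPM in the control line and 768 and 864 CPM in the miR-148a line (0.70 ± 0.07, adjusted p = 4.1e-05). Cd79a, the signaling chain of the B cell receptor, stood at 481 and 531 CPM against 680 and 769 CPM (0.52 ± 0.07), and Ly6d, a marker of early B cells, at 182 and 169 CPM against 355 and 261 CPM (0.79 ± 0.09). Pax5, Ikzf3, Spi1, Foxp1, Ms4a1, Cd79b, Cd24a, Fcrla and Cnp, an enzyme best known from myelin, were the others called higher. Cr2, the complement receptor CD21, was called lower at 19.1 and 31.7 CPM against 8.06 and 14.9 CPM (-1.12 ± 0.18), as was Irf8. Dropping the replicate block, 4 genes of the list were called higher and none lower (2 lower at an unadjusted p under 0.05), and without the set 2 stimulated miR-148a library 6 were called higher and 2 lower. With set 2 stimulated control left out, 8 were called higher and none lower. In bulk RNA a change in the share of cells of one state and a change in RNA per cell cannot be told apart.

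Among 27 tested genes of proximal B cell receptor signaling, 8 were called higher and 2 lower, with a median of 0.13. Unstimulated the median was -0.13, and 3 were called higher and 5 lower. Cd79a, Cd79b and Cr2 are in both this list and the B lineage list. The kinase Syk stood at 395 and 412 CPM in the control line and 545 and 626 CPM in the miR-148a line (0.54 ± 0.08, adjusted p = 0.000418). Lyn, Plcg2, Prkcb, Cd79a and Cd79b were also called higher. Pirb, an inhibitory receptor, had the largest difference, at 37.5 and 38.9 CPM against 77.8 and 92.8 CPM (1.17 ± 0.12), and 0.23 unstimulated. Lat2, a membrane adaptor, was called lower (-0.99 ± 0.19). Of the 27, 3 remained called higher and 1 lower with no replicate block, and 5 higher and none lower (2 at an unadjusted p under 0.05) without the set 2 stimulated control library, where Lat2 (adjusted p = 0.073) and Cr2 (0.065) lost their calls. Of 21 immediate early genes of this receptor, Fosl2 and Dusp2 were called higher and Egr2, Dusp4, Dusp6 and Cd83 lower. Cd83 was near the floor, with 5 and 26 counts in the control line and 3 and 3 in the miR-148a line. The median of those 21 genes was 0.22 in set 1 and -0.20 in set 2, so the sets differed in direction. Dusp4, a phosphatase of MAP kinases, stood at 5.02 and 11.6 CPM against 3.45 and 3.14 CPM, and Egr2, an early transcription factor, at 4.35 and 7.13 CPM against 3.62 and 2.03 CPM. None of the 21 was called with no replicate block (2 higher and 4 lower at an unadjusted p under 0.05), and DESeq2 called 1. Leaving out the set 2 stimulated library of either line left 1 of them called higher and none lower. Without the set 1 stimulated control library none was called higher and 4 lower, and leaving out set 1 stimulated miR-148a or either unstimulated miR-148a library left 2 lower. Of 20 NF-kB pathway genes only Bcl3, a nuclear IkB family member, was called, higher by 0.42 ± 0.08, and with no replicate block it was not (1 at an unadjusted p under 0.05); DESeq2 called 1. The median of those 20 was 0.16 in set 1 and -0.20 in set 2, again opposite in sign, and 2 and 3 of them were called lower without the set 1 stimulated control and miR-148a library.

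FOXO factors act when PI3K signaling is low. Of 17 tested FOXO factors and genes known to be driven by them, 6 were called higher, among them Klf2, S1pr1, Pik3ip1, Sesn1 and Insr, and Trib3 lower. S1pr1, the receptor for egress from lymphoid organs, stood at 17.4 and 12.001 CPM in the control line and 35.9 and 45.0 CPM in the miR-148a line (1.54 ± 0.19, adjusted p = 0.000178), and it holds an 8mer. Klf2, a quiescence factor, stood at 77.0 and 80.4 CPM against 116 and 172 CPM (0.88 ± 0.13). The median of the list was 0.08 in set 1 and 0.50 in set 2, so set 2 had the larger difference. Without the set 2 stimulated control library 2 members were called and without the set 2 stimulated miR-148a library 3, all higher, and 3 higher with no replicate block.

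Biosynthetic genes that were called were nearly all lower in the stimulated miR-148a line, and their medians differed between the sets. Of 30 tested ribosome biogenesis genes, 14 were called lower and none higher, among them Ddx21, a nucleolar helicase, and Nop16, a nucleolar protein. Called with them were 2 members that act in polyamine synthesis and not in the ribosome itself, Srm, spermidine synthase, and Odc1, ornithine decarboxylase. Srm stood at 85.7 and 132 CPM in the control line and 72.5 and 65.8 CPM in the miR-148a line (-0.67 ± 0.13, adjusted p = 0.00392). Ddx21 stood at 318 and 459 CPM against 283 and 246 CPM (-0.55 ± 0.12), and Nop16 at 55.7 and 68.4 CPM against 51.0 and 38.2 CPM (-0.53 ± 0.14). The median of the list was -0.04 in set 1 and -0.65 in set 2. In set 1 the lines were thus close to each other, and in set 2 they were far apart. In edgeR no member was called with no replicate block (15 lower at an unadjusted p under 0.05), without the set 2 stimulated control library (5 lower) or without the set 2 stimulated miR-148a library (6 lower), and DESeq2 with the block called 10. Without the set 1 stimulated control or miR-148a library 23 and 26 were called lower, and 8 without either of the unstimulated miR-148a libraries in turn.

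The amino acid genes of the ATF4 response, which supply serine, asparagine and charged transfer RNAs, also had the lower median in set 2. Of 31 tested, 17 were called lower and Cbs higher, with medians of -0.19 in set 1 and -0.58 in set 2. Cth, with its 8mer, had the largest called decrease, and Aldh18a1, which makes the proline precursor, stood at 89.2 and 100 CPM against 65.6 and 55.7 CPM (-0.66 ± 0.10). Asns, Psat1, Psph, Shmt2, Mthfd2 and the transfer RNA synthetases Aars, Gars, Nars, Iars and Mars were also called lower. Leaving out the set 2 stimulated library of either line, 3 were called lower and none higher, as were 2 with no replicate block. Of 9 heat shock genes 6 were called lower, with medians of -0.13 and -0.48: Hsph1, a chaperone of the HSP110 family, stood at 271 and 282 CPM against 183 and 138 CPM (-0.81 ± 0.10). Of these 9, 2 were called lower when the set 2 stimulated library of either line was left out, and none with no replicate block (3 lower at an unadjusted p under 0.05).

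Glycolysis genes that were called were, except for Pdk1, lower, and the median was negative in both sets. Of 20 tested, 10 were called lower and Pdk1 higher, with medians of -0.34 in set 1 and -0.22 in set 2. Pkm, pyruvate kinase, stood at 1297 and 1076 CPM in the control line and 844 and 810 CPM in the miR-148a line (-0.52 ± 0.08, adjusted p = 0.000997). Pfkp, a phosphofructokinase, stood at 121 and 118 CPM against 85.2 and 62.8 CPM (-0.72 ± 0.10), and Hk2, hexokinase 2, at 96.3 and 136 CPM against 75.5 and 85.9 CPM (-0.53 ± 0.09). Without the set 2 stimulated control library 5 were called lower and without the set 2 stimulated miR-148a library 8, and 3 with no replicate block, and none was called higher in these fits.

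Of 31 genes of cholesterol and fatty acid synthesis, 7 were called lower and Acly higher, with a median of -0.18 (-0.08 in set 1 and -0.23 in set 2). Idi1 stood at 231 and 172 CPM in the control line and 134 and 90.9 CPM in the miR-148a line (-0.85 ± 0.09, adjusted p = 4.44e-05), and Lss, lanosterol synthase, at 43.9 and 41.7 CPM against 34.5 and 30.3 CPM (-0.41 ± 0.11). Lss was not called with no replicate block (adjusted p = 0.137), by DESeq2 (0.0715) or in the 4 stimulated libraries alone (0.0648). The call was also lost without the stimulated control library of set 1 (adjusted p = 0.127) or set 2 (0.101), and without the set 2 stimulated miR-148a library (0.370). Without the set 2 stimulated control library 1 remained called lower, without its miR-148a counterpart 2, without the set 1 stimulated control and miR-148a libraries 4 and 11, and none with no replicate block (9 lower at an unadjusted p under 0.05). Of 36 DNA replication genes 7 were called lower, including Fen1, a flap endonuclease (-0.32), and none higher. None of the 36 was called with no replicate block (10 lower at an unadjusted p under 0.05) and DESeq2 called 2. Leaving out any 1 of the 8 libraries left 0 to 3 of them called. Of 30 mitosis genes 4 were called higher, among them Kif23, a kinesin of the midbody (0.42), and Aurkb, which has an 8mer, was called lower (-0.32, adjusted p = 0.0276). Aurkb was not called by DESeq2 (adjusted p = 0.0705), in the 4 stimulated libraries alone (0.0994) or when any 1 of those 4 was left out (0.0547 to 0.138). Without the set 2 stimulated control library none of the mitosis genes was called higher, without set 2 stimulated miR-148a 2, and without set 1 stimulated miR-148a 1.

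All MHC class II genes that were called were lower in the miR-148a line, and the median was nearer to 0 than in unstimulated cells. Of 14 tested, 6 were called lower and none higher, and the median was -0.53 (-0.75 in set 1 and -0.38 in set 2). H2-Ab1 stood at 20.4 and 26.9 CPM in the control line and 4.44 and 14.1 CPM in the miR-148a line (-1.27 ± 0.25, adjusted p = 0.00398), and H2-Aa at 40.3 and 70.2 CPM against 14.6 and 41.9 CPM (-0.94 ± 0.27). Ciita, the transactivator of these genes, and Rfx5 were also called lower. Unstimulated, 9 of the 14 were called lower and the median was -1.25, and none of the 14 passed the test of the difference between the line differences. No member was called without the set 2 stimulated control library or with no replicate block (4 lower at an unadjusted p under 0.05 in each), and DESeq2 called 1. Without the set 2 stimulated miR-148a library 9 were called lower, and 3 without either set 1 stimulated library or either unstimulated miR-148a library in turn.

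Among 22 endoplasmic reticulum chaperones and genes of the unfolded protein response, 4 were called lower with anti-IgM and none higher: Pdia3, a disulfide isomerase, Calr, Canx and Atf6. The median of the list was 0.02 in set 1 and -0.31 in set 2, so only set 2 had a negative median. Pdia3 stood at 990 and 935 CPM in the control line and 625 and 502 CPM in the miR-148a line (-0.78 ± 0.08, adjusted p = 4.39e-05) and differed by -0.94 unstimulated. Calr stood at 1262 and 1389 CPM against 948 and 923 CPM (-0.50 ± 0.07). Of the 22, 2 were called lower and none higher without the set 2 stimulated control library. Leaving out set 2 stimulated miR-148a, 2 were called in each direction and the fitted median was 0.04, and without set 1 stimulated miR-148a 11 were called lower. In unstimulated cells 13 were called lower and 1 higher. Of 13 plasma cell genes, Irf4 (-0.52) and Ell2 (-0.40) were called lower and none higher, with medians of 0.0008 in set 1 and -0.11 in set 2. Neither was called when the set 2 stimulated library of either line was left out (2 lower at an unadjusted p under 0.05 in each), and 4 of the list were called lower without set 1 stimulated miR-148a.

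In the remaining lists calls were few or ran both ways. Of 20 p53 targets 4 were called in each direction, with Btg2, an antiproliferative gene, higher (0.63) and Ccng1 lower (-0.49). Of 15 growth arrest genes Btg2 and Cdkn2c, an inhibitor of cyclin-dependent kinases, were called higher and Ccng1 lower, with medians of -0.06 in set 1 and 0.27 in set 2. Cdkn2c was not called by DESeq2 (adjusted p = 0.119) or without the set 1 stimulated control (0.0502) or either set 2 stimulated library (0.283 and 0.389), and 5 of the list were called higher without set 1 stimulated miR-148a. Of 20 interferon-stimulated genes Ddx58, the RNA sensor RIG-I (0.92), Gbp2 and Zbp1 were called higher and 1 gene lower. Ddx58 stood at 20.6 and 19.2 CPM against 35.2 and 39.2 CPM, and it holds an 8mer. Of 9 enzymes of DNA methylation, Dnmt3a (0.22) and Tet3 (0.35) were called higher and Dnmt1 and Tdg, a thymine DNA glycosylase (-0.73 ± 0.11), lower. DESeq2 called the last pair and neither of the first, which were also not called when the set 2 stimulated library of either line was left out; 1 of the list was called higher when any other library was left out, and 1 lower without the set 2 stimulated control. Itgam, a myeloid integrin chain at 3.85 to 8.86 CPM, was the 1 myeloid marker called, higher by 0.81 (adjusted p = 0.0391), while the summed myeloid markers stood at 13.1 to 17.9 CPM. It was not called with no replicate block (adjusted p = 0.208), by DESeq2 (0.289), in the 4 stimulated libraries alone (0.0538) or when any 1 of those 4 was left out (0.109 to 0.242). Dropping the replicate block left 1 p53 target and 1 growth arrest gene called higher, 1 interferon-stimulated gene in each direction and 2 chaperones lower. It left no call among the mitosis genes (3 higher and 1 lower at an unadjusted p under 0.05), the plasma cell genes (2 lower) or the DNA methylation enzymes (2 lower), of which DESeq2 called 3, 2 and 2. Leaving out the set 2 stimulated library of either line left 2 p53 targets called higher and 1 lower, and leaving out set 1 stimulated control or either unstimulated miR-148a library left 2 lower. Without set 2 stimulated miR-148a 1 interferon-stimulated gene was called higher.

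**Figure D4:**
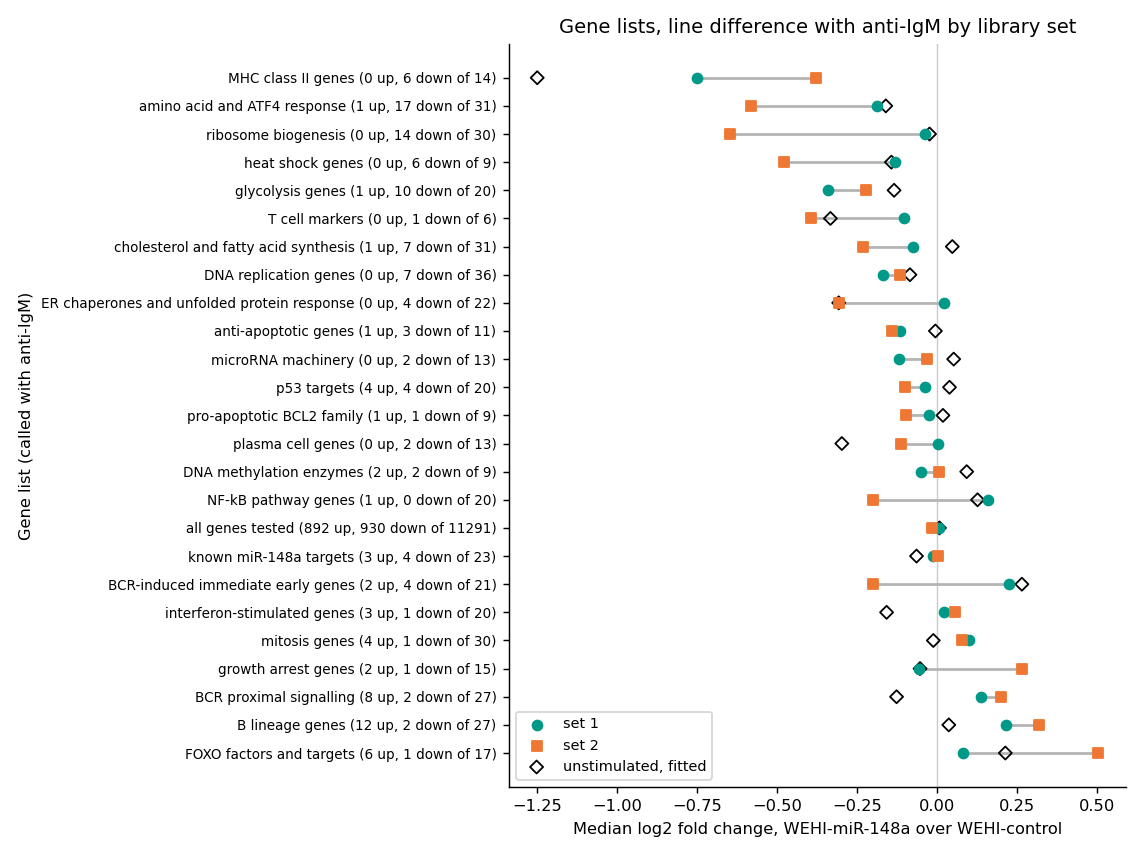
Median log2 fold change of WEHI-miR-148a over WEHI-control (x axis) for each gene list (y axis, with the numbers called with anti-IgM), as circles for set 1, squares for set 2 and open diamonds for the fitted unstimulated difference. The sets lie far apart for ribosome biogenesis (-0.04 and -0.65) and close for B lineage genes (0.21 and 0.32).

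For most genes called with anti-IgM the line difference had the same sign without it. The 2 comparisons share no library, although the fit pools their spread. Of the 1822 genes called with anti-IgM, 1615 (88.6%) had the same sign unstimulated, against 67.4% of all tested genes. Unstimulated, 823 genes were called (7.29%), 55 with no replicate block and 94 to 356 when 1 of the unstimulated libraries was left out. Of the 823, 469 were called in both states in the same direction, 25.7% of the stimulated and 57.0% of the unstimulated calls. A further 3 were called in opposite directions. Among the 1822 the median size of the difference was 0.459 (log2) with anti-IgM and 0.217 without, a comparison that the choice of genes by the first favors. Over all 11291 tested genes, with no such choice, it was 0.186 with anti-IgM and 0.138 without, and 6751 had the larger difference with anti-IgM.

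The test of the difference between the line differences called 11 genes (0.0974%). Tfrc, the transferrin receptor, had the lowest adjusted p (0.0053). It stood at 1086 and 1008 CPM in the unstimulated control line and 880 and 842 CPM in the unstimulated miR-148a line, and at 817 and 673 CPM against 359 and 304 CPM with anti-IgM. The line difference was -0.28 without and -1.17 with anti-IgM. Ccnb1ip1, an E3 ligase linked to cyclin B, went from -0.22 to -1.15, and Slc4a7, a bicarbonate transporter, from -0.04 to -0.86. Pdgfb, a growth factor chain, went from 0.95 to -0.54: it stood at 5.04 and 4.42 CPM against 10.1 and 8.46 CPM unstimulated and at 14.7 and 18.1 CPM against 10.9 and 11.9 CPM with anti-IgM.

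The other called genes had a higher line difference with anti-IgM than without. Lsp1, an actin-binding protein of leukocytes, stood at 421 and 459 CPM in the stimulated control line and 596 and 666 CPM in the stimulated miR-148a line, a difference of 0.52 against -0.22 unstimulated. Ceacam1, an inhibitory adhesion receptor, differed by 0.60 against -0.12, Cnp by 0.48 against -0.18 and Ckm, the muscle creatine kinase, by 1.05 against 0.41. Cyth4, an exchange factor for ARF proteins, and Klhl6, a B cell gene of the Kelch family, were lower in the unstimulated miR-148a line (-0.56 and -0.76) and differed by 0.23 and 0.13 with anti-IgM, neither of them called. In edgeR with no replicate block none of the 11291 was called (484 at an unadjusted p under 0.05), DESeq2 with the block called 42, and leaving out 1 library gave from 0 (without unstimulated miR-148a of set 2) to 374 (without stimulated miR-148a of set 1).

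**Figure D5:**
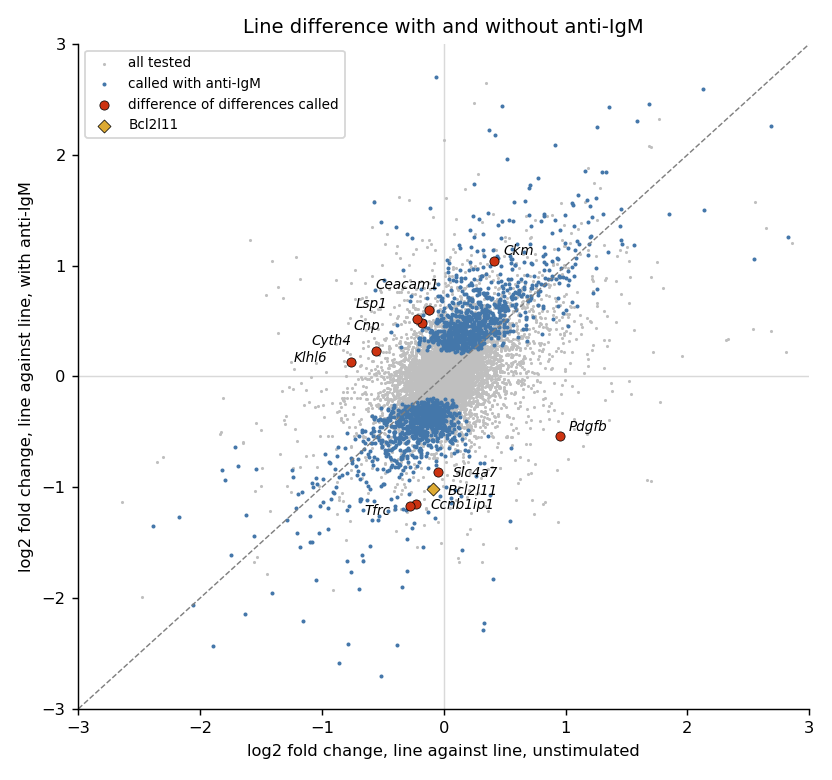
Line difference (log2 fold change, WEHI-miR-148a over WEHI-control) with anti-IgM (y axis) against the same difference unstimulated (x axis), 1 point per gene, blue where called with anti-IgM and red where the 2 differences differed in the test; 12 genes lie outside the plotted window. Bcl2l11 (yellow diamond) lies at -1.02 with anti-IgM and -0.09 unstimulated, and Tfrc at -1.17 and -0.28.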

How the data were processed

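Polyadenylated RNA of 8 libraries, 4 groups of 2, was measured by directional RNA-seq. The authors deposited 1 table of expected counts (estimated counts per gene, not whole) of 24081 rows. The submitters' processing notes list the aligners Bowtie2 and TopHat2 2.0.13, the trimmer cutadapt, the software Partek 6.15.0730, the R package edgeR and the base caller CASAVA 1.8, and the build mm10 (GRCm38). The sources used here give neither their order nor their settings. The deposited values were rounded, and 27 rows whose names had turned into dates (0.213 to 0.235% of counts) were left out. Totals ran from 5810227 to 18660373 per library. The floors cover counting error only, while the SE rests on the spread between libraries in the fit.

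Genes with low counts were dropped with filterByExpr (11291 kept), scaling was TMM, and a model of 4 group means plus the set (replicate number) was fitted to all 8 libraries with edgeR's quasi-likelihood test (edgeR 4.0.16 in R 4.3.3); the threshold was an adjusted p of 0.05 (Benjamini-Hochberg). The SE of a log2 fold change was its size over the root of F. Levels are CPM after TMM scaling, values for 1 set are differences of log2 CPM with a prior count of 2. The numbers were taken to pair the libraries: the deviations of same-numbered libraries from their group means correlated at 0.495 to 0.569 in every pair of groups, and a principal component (21.1%) separated the sets. Biological coefficients of variation were 5.98% with the block and 11.1% without. Replicates differed beyond counting noise (chi-square per gene 9.47 to 13.7).

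Seed sites were counted in the longest 3′ UTR of GENCODE M21 (GRCm38). Of 11291 genes, 10816 were used, 379 through an older symbol. Site classes and gene lists are described by counts and medians, with no test. The comparison, its members and the lists were chosen with earlier results of these data known. Named genes were, by rule: the 12 highest and 12 lowest called whose mean log2 CPM over the stimulated libraries reached 1, with 1 sign in both sets, predicted genes left out; up to 4 called per list; the 8 lowest called with an 8mer at a mean of at least 3; Bcl2l11, Gadd45a and the miR-148a gene; and 5 in each direction from the test between line differences. Other genes in the text are members of the lists named after their calls were seen. Alternatives were no block, DESeq2 1.42.0, other scaling, other filters, the stimulated libraries alone and leaving out each library. Some genes that the rule names, or that the lists hold, are not reported here, while the counts include them.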

Additional observations from a re-analysis of the deposited data

Results flagged for a closer look

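In 11 genes the line difference with anti-IgM differed from that without it by edgeR's interaction test at an adjusted p under 0.05. The values that follow are the difference with anti-IgM less that without, on the log2 scale. It was -1.495 for Pdgfb, -0.9234 for Ccnb1ip1, -0.886 for Tfrc and -0.8164 for Slc4a7. It was 0.6329 for Ckm, 0.663 for Cnp, 0.7152 for Ceacam1, 0.7418 for Lsp1, 0.7893 for Cyth4 and 0.889 for Klhl6. The value for 1700088E04Rik, 7.722, depends on the prior count and is no bound, since both unstimulated miR-148a libraries held no count and its levels elsewhere were 0.522 to 2.63 CPM. With no replicate block none of these passed the test, and DESeq2 gave an adjusted p under 0.05 for all but Pdgfb and 1700088E04Rik, for which it gave none.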

How the results depend on the processing

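Called genes are counted here in the order with anti-IgM, unstimulated, difference of the differences. They numbered 1822, 823 and 11, with no replicate block 284, 55 and 0, and with DESeq2 1020, 418 and 42. With no filter 1284 were called unstimulated and 348 in the difference of the differences; with the stricter filter (30 counts in 2 libraries) the last was 4. The 4 stimulated libraries alone gave 860 with the block and, in a fit added after seeing the data, 16 without. Leaving out 1 library gave 430 to 2143, 94 to 1185 and 0 to 374; where this leaves 1 library in a group, that library is assumed to vary like the others. The 8mer median less that of genes with no site, -0.1325, became -0.1598 with the shortest 3′ UTR. It was -0.2464, -0.07595 and -0.1416 among 3′ UTRs of up to 690, 690 to 1819 and over 1819 bases. With no replicate block, which moves fold changes little in this balanced design, it was -0.1359. It was -0.1357 to -0.1444 with 1 stimulated library left out. Leaving out 1 unstimulated library, which this difference does not use directly, gave -0.131 to -0.1333. Of 119 named genes 116 were called; 44 remained so with no replicate block, 78 of 114 under DESeq2 and 7 under every setting run, and none changed direction. The cause of these changes was not tested. Depth was lowest in the set 1 stimulated libraries, where a gene under 0.502 CPM rests on at most 3 counts.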
